A study of Homo sapiens with 12 samples.

Results

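The ZNF symbols name one of the largest families of human transcription factors. The genes described here are the well expressed members of that family in SK-UT-1, an established cell line from a human uterine leiomyosarcoma, and they were chosen by 2 criteria. The symbol had to be ZNF followed by a number, and the mean of the deposited log2 value over the 3 DMSO libraries had to reach 9.5, so the DMSO level itself was used to select them and is given below as a description. Of 553 ZNF symbols among the 22784 symbols measured, 256 met both criteria, and 297 lay under 9.5. The 553 include 31 antisense RNAs, none of them among the 256. All 256 passed the filter on low values. They hold 254 distinct sets of values, because ZNF765-ZNF761 carries the same values as ZNF761 in every library and ZNF660-ZNF197 the same values as ZNF197. All 256 symbols enter the counts below, so the up calls of ZNF761 are counted under both of its symbols. In the study, this single line was treated for 48 h with vehicle (VEH in the labels, DMSO in the methods) or with 5 µM of JQ1 or I-BET 762, and total RNA was sequenced from strand-specific libraries. All groups used here come from the one line. Both compounds block the bromodomains of the BET proteins from binding acetylated lysine, and both are triazolodiazepines, with a thiophene ring fused to the diazepine in JQ1 and a benzene ring in I-BET 762. The questions asked of these genes are how their RNA differed between each inhibitor and DMSO, and between the inhibitors. The libraries were 3 of DMSO (13, 14 and 15), 4 of JQ1 (17 to 20) and 3 of I-BET 762 (21 to 23), while DMSO 16 and I-BET 762 24 were not analysed here.

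Most ZNF proteins bind DNA through tandem C2H2 zinc fingers, short loops in which a pair of cysteines and a pair of histidines hold a zinc ion and the helix between them reads a few bases. In many of them the fingers are preceded by a KRAB domain, which recruits the scaffold protein TRIM28, and TRIM28 in turn gathers the histone methyltransferase SETDB1, HP1 proteins and the NuRD deacetylase complex, so that the bound sequence, very often a transposable element, is packed into heterochromatin. The genes arose by repeated tandem duplication and lie in large clusters on chromosome 19. ZNF proteins without a KRAB domain have other roles, among them subunits of chromatin complexes, RNA-binding proteins and activators. BET proteins bind acetylated histones at promoters and enhancers and help RNA polymerase II to leave the promoter.

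Upstream sequences are shown for 2 genes that fell and 2 that rose with JQ1, so that the promoters of genes that moved in opposite directions can be read side by side. They are the genes with the largest changes whose 250 bases before the RefSeq start (GRCh38.p14) were in the reference table and overlapped no annotated exon. Each is written 5′ to 3′ on the strand of its gene, in lower case, with capitals marking short motifs on either strand, which are the GC box core GGGCGG, the CCAAT box, the E-box letters CACGTG and the TATA box letters TATAAA. The windows are chr10:43648882-43649131 on the minus strand for ZNF32, chr5:124748825-124749074 on the minus strand for ZNF608, chrX:130268900-130269149 on the minus strand for ZNF280C and chr19:53431734-53431983 on the plus strand for ZNF761.
ZNF32: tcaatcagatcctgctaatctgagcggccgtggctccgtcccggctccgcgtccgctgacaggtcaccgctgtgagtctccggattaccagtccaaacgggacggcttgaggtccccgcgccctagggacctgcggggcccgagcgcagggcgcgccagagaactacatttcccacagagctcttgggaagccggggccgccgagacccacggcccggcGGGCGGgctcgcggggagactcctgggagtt
ZNF608: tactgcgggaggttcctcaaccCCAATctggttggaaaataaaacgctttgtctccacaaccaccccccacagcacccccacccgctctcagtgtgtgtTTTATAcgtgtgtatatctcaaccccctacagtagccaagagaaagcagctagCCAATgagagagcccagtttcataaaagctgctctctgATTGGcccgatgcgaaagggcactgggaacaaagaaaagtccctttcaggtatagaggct
ZNF280C: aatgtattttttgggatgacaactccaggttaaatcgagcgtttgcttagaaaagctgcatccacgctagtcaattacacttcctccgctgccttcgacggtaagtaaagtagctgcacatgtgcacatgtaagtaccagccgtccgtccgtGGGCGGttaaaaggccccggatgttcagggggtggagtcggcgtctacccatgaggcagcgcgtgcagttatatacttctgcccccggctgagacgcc
ZNF761: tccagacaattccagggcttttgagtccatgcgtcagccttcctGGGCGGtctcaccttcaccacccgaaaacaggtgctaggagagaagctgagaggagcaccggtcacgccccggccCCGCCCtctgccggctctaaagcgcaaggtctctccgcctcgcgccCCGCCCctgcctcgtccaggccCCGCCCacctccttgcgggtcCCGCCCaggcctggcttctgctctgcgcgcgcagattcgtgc
The window of ZNF761 holds 5 GGGCGG matches and has a GC content of 67.6%. The windows of ZNF32 and ZNF280C hold 1 GGGCGG match each, with GC contents of 68.8% and 53.2%. The window of ZNF608 holds 3 CCAAT matches, 1 TATAAA match and no GGGCGG match, with a GC content of 50.4%. A match is a string of letters and not a measured binding site.

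Reads on genes, recovered from the deposited values, numbered 35564586 to 39658989 per library. Smooth muscle markers differed in level in the DMSO libraries, with ACTA2 at 6899 to 7326 normalized counts and TAGLN at 1565 to 1651. DES, the intermediate filament protein desmin, was at 186.6 to 187.7, LMOD1 at 151.1 to 168.3 and CNN1 at 84.3 to 110. MYH11, also on the marker list, was not among the symbols measured. Of the 7 smooth muscle markers measured, DES, ACTA2, CNN1, TAGLN, CALD1 and LMOD1 were lower in every inhibitor library than in every DMSO library, and SMTN overlapped (2132 to 2573 with DMSO, 2343 to 2885 with JQ1, 2568 to 2740 with I-BET 762). The differences ran from CALD1, at 9017 to 9738 with DMSO and 4933 to 5126 with JQ1, to DES, at 2.18 to 14.2 with JQ1 and 18.7 to 21.7 with I-BET 762. ESR1 and PGR, the uterine hormone receptors, did not exceed 4.35 normalized counts in any library. The blood marker PTPRC and the endothelial markers PECAM1 and CDH5 did not exceed 4.06, and the epithelial markers KRT18, KRT8, EPCAM and CDH1 were at 278 to 294.9, 127.4 to 187.7, 37.8 to 42.8 and 3.87 to 13.65 in the DMSO libraries. KRT18, KRT8 and EPCAM were lower in every inhibitor library (165.9 to 217.6, 80.1 to 103.4 and 12.2 to 35.1), and CDH1 overlapped with JQ1. The part of these markers in the ZNF values was not tested. The summed normalized counts of the 256 ZNF genes made up 1.39% to 1.41% of all normalized counts in the DMSO libraries, 1.33% to 1.37% in the JQ1 libraries and 1.34% to 1.37% in the I-BET 762 libraries. The median ZNF gene of library JQ1 18 lay 0.21 (log2) above its DMSO mean, against 0.09 to 0.12 in the other JQ1 libraries, so the main JQ1 counts are also given without that library. In such bulk RNA, fewer cells of one state and less RNA per cell cannot be told apart. The labels do not say whether the libraries came from separate cultures, so the p-values measure the spread between these samples, which may be technical.

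With JQ1, 27 of the 256 ZNF genes rose and 20 fell against DMSO, where a call needs a Benjamini-Hochberg adjusted p under 0.05 in limma and a fold change over 1.5. Among all 14839 genes tested, 13.3% were called up and 22.8% down, against 10.5% and 7.81% of the ZNF genes, and the difference was not tested. The fall of ZNF532, a zinc finger subunit of a chromatin complex, was the largest at 16.1-fold, and the rise of ZNF280C was the largest at 2.52-fold. Of the 256 genes, 81.6% stayed within 1.5-fold of DMSO, against 61.9% of all genes tested and 76.1% of the 7780 genes tested that also have a DMSO mean of at least 9.5. Genes with a DMSO mean of at least 9.5 were called up in 10.9% and down in 13% of cases. The 242 ZNF symbols that were tested but lay under 9.5 were called up in 15.3% and down in 23.6% of cases, and the 219 of them that do not name an antisense RNA in 15.5% and 22.8%.

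**Figure D1:**
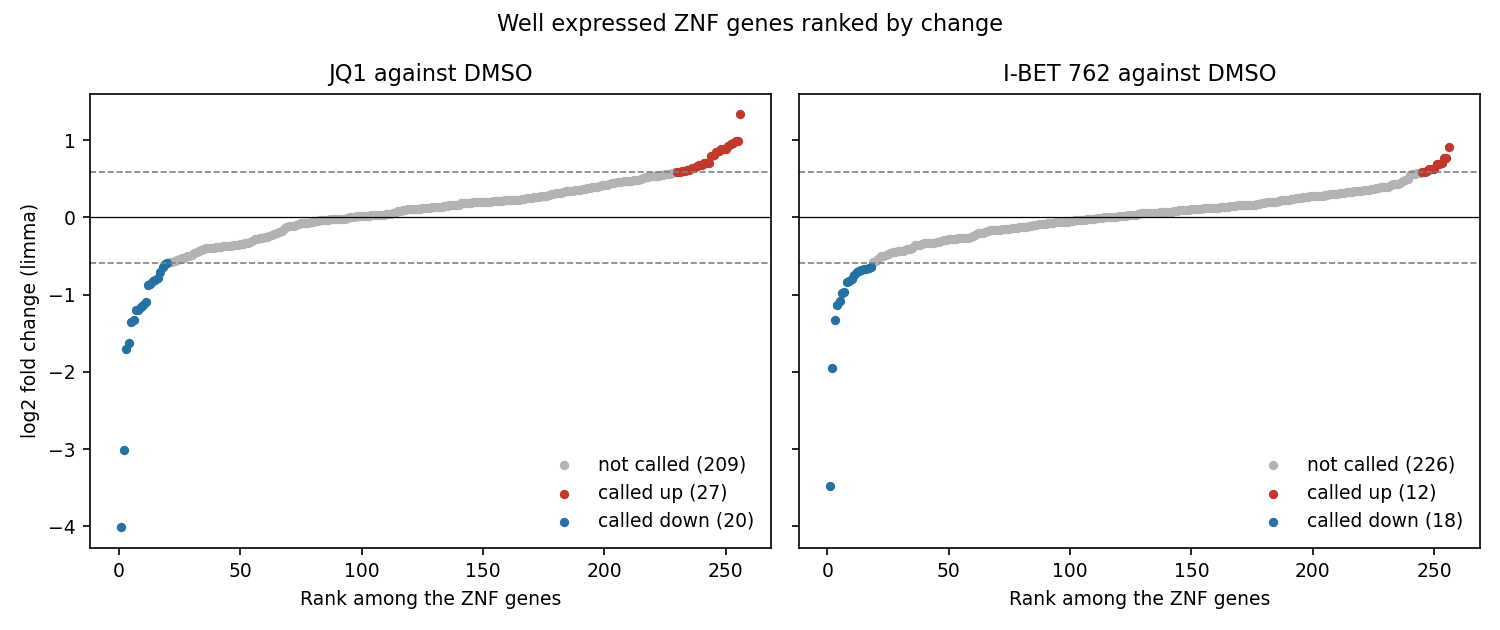
Log2 fold changes from limma (vertical axis) of the 256 well expressed ZNF genes, ranked from lowest to highest (horizontal axis), for JQ1 against DMSO on the left and I-BET 762 against DMSO on the right. Each point is a gene, dashed lines mark a 1.5-fold change, and colour marks the 27 up and 20 down calls with JQ1 and the 12 up and 18 down calls with I-BET 762; the falls reach -4.01 and -3.48 and the rises 1.33 and 0.91.

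The calls are a minority of the genes that passed the adjusted p alone. With JQ1, 124 of the ZNF genes were higher and 69 lower at an adjusted p under 0.05 in limma, or 48.4% and 27%, where the shares were 36% and 35.6% of all genes tested and 45.9% and 31.4% of genes with a DMSO mean of at least 9.5. The median log2 fold change of the 256 genes was 0.13, beside 0.01 over all genes tested and 0.10 over the genes with a DMSO mean of at least 9.5. The balance of rises and falls depended on how libraries were scaled. With libraries rescaled to equal totals, the median over all genes tested moved to -0.18, and 13 ZNF genes were called up and 35 down. Of the 14839 genes tested, 1222 were called up and 4217 down at that scaling. With equal upper quartiles the numbers were 19 up and 27 down, beside 1665 and 3650 of all genes tested. The median of the ZNF genes then became -0.06 and 0.06, since a rescaling moves all genes of a library together. Without library JQ1 18, 21 ZNF genes were called up and 22 down, 123 were higher and 69 lower at the adjusted p alone, and the median was 0.10. The up calls of ZNF264, ZNF330, ZNF823, ZNF138, ZNF322 and ZNF430 (then 0.53 to 0.58, log2) and the down call of ZNF516 (then -0.48) then lay under the fold threshold, and ZNF621, ZNF227 and ZNF232 were called down. The DMSO libraries that chose the genes also enter this comparison.

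**Figure D2:**
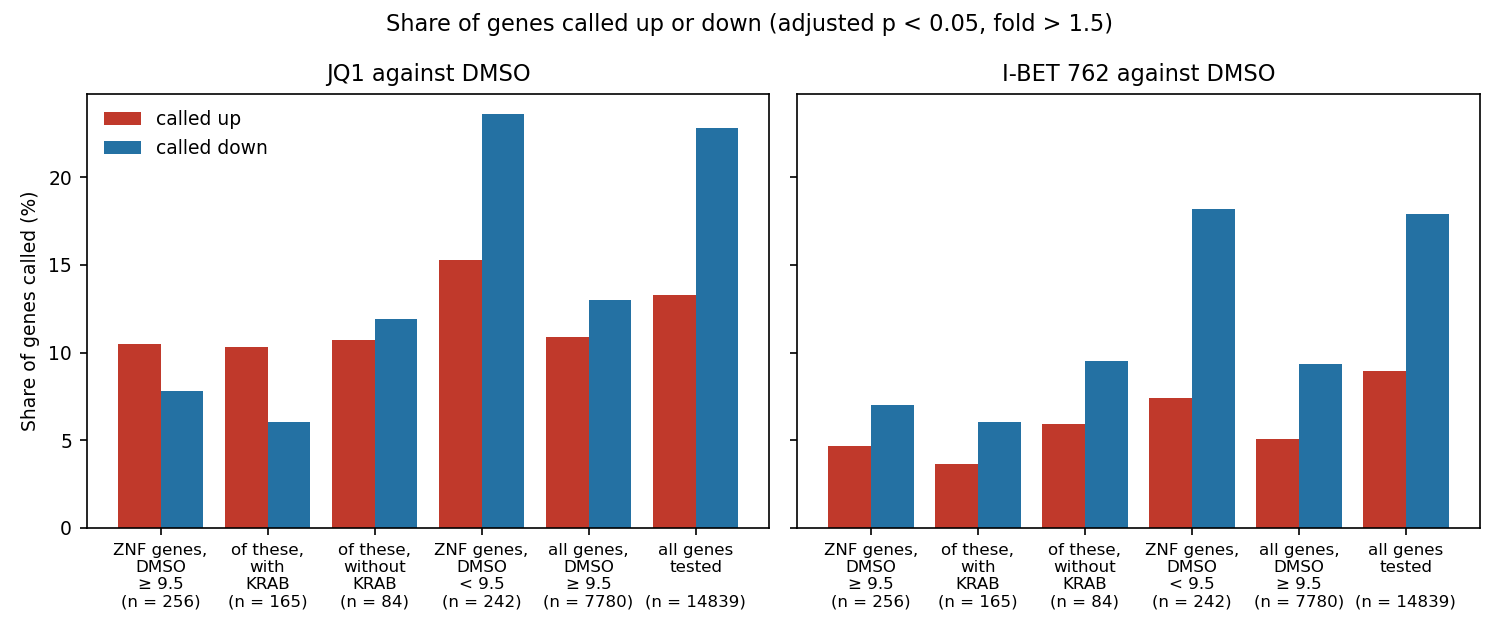
Share of genes called up (red) or down (blue) in percent (vertical axis) with JQ1 on the left and I-BET 762 on the right, for the well expressed ZNF genes, those with and without a KRAB domain, the ZNF genes under 9.5, all genes with a DMSO mean of at least 9.5 and all genes tested (horizontal axis, with the number of genes). With JQ1 the down bar is 7.81% for the well expressed ZNF genes, 23.6% for the ZNF genes under 9.5 and 22.8% for all genes tested.

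ZNF532, which joins ZNF592, ZNF687 and ZMYND8 in a chromatin complex and is a fusion partner of NUT in NUT carcinoma, lies at chr18:58862600-58986480 (GRCh38, Gencode V44, plus strand). Its normalized counts were 1625, 1578 and 1626 in the DMSO libraries, 91.2, 93.6, 102 and 111 in the JQ1 libraries, and 130, 148 and 155 in the I-BET 762 libraries. The 3 groups did not overlap, with the JQ1 libraries lowest. The log2 fold change was -4.01 ± 0.10 (SE) with JQ1 and -3.48 ± 0.10 with I-BET 762 (limma adjusted p of 2.18e-14 and 9.26e-13). Of its exon sequence, 10.3% has an exact copy elsewhere in the genome, so a small part of its reads could be shared.

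ZNF618, a reported reader of 5-hydroxymethylcytosine at chr9:113876282-114056593, was the next to fall. It had 1263, 1024 and 1106 normalized counts with DMSO, 131, 138, 136 and 154 with JQ1, and 292, 304 and 282 with I-BET 762. The groups again did not overlap, and I-BET 762 lay between DMSO and JQ1. Its fall was 8.03-fold with JQ1 (limma adjusted p of 1.91e-13) and 3.84-fold with I-BET 762 (1.81e-10).

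**Figure D3:**
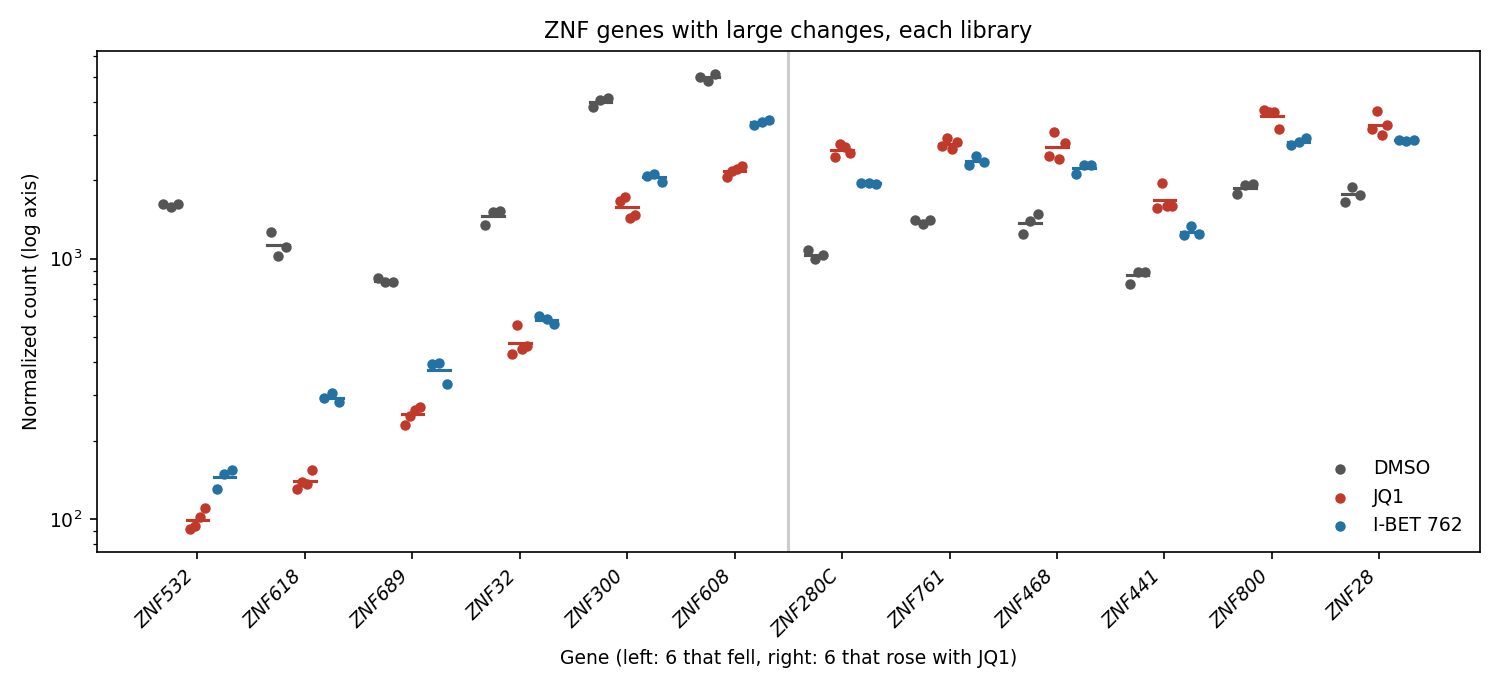
Normalized counts (vertical log axis) of 12 ZNF genes (horizontal axis) in each DMSO (grey), JQ1 (red) and I-BET 762 (blue) library. Points are libraries and bars are group means; ZNF532 goes from 1578 to 1626 with DMSO to 91.2 to 111 with JQ1, and in the genes that rose the I-BET 762 libraries lie between DMSO and JQ1.

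ZNF689, a KRAB zinc finger gene at chr16:30602558-30624012, had 841, 812 and 812 normalized counts with DMSO, 230, 248, 262 and 270 with JQ1, and 395, 398 and 329 with I-BET 762. It fell 3.25-fold with JQ1 and 2.2-fold with I-BET 762 (limma adjusted p of 6.64e-11 and 3.84e-08), and no library of one group reached another group. ZNF32, a short protein of 273 residues with 6 fingers and no KRAB domain, had 1353, 1511 and 1529 with DMSO, 431, 554, 450 and 462 with JQ1, and 602, 586 and 559 with I-BET 762. The highest JQ1 library at 554 lay just below the lowest I-BET 762 library at 559, and all DMSO libraries were far above both. ZNF32 fell 3.09-fold with JQ1 and 2.51-fold with I-BET 762, and 37.9% of its exon sequence is overlapped by exons of the opposite strand, so its counts are less certain if reads were counted without strand.

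ZNF300, a KRAB gene on chromosome 5, was among the more abundant genes to fall, with 3820, 4069 and 4149 normalized counts with DMSO, 1671, 1725, 1434 and 1468 with JQ1, and 2081, 2122 and 1980 with I-BET 762. The groups did not overlap, and the fall was 2.55-fold with JQ1 and 1.95-fold with I-BET 762. ZNF395, a hypoxia-responsive DNA-binding protein, had 1478 to 1536 normalized counts with DMSO, 548 to 656 with JQ1 and 701 to 711 with I-BET 762, a fall of 2.50-fold and 2.12-fold. Exons of another gene on the same strand cover 35.0% of the ZNF395 exon sequence. ZNF608, a large protein with a single C2H2 finger, had 4978, 4837 and 5148 with DMSO and 2054, 2167, 2213 and 2264 with JQ1, a 2.29-fold fall, and its values with I-BET 762 stood apart from both at 3274, 3353 and 3400.

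The remaining large falls with JQ1 were smaller than 2.3-fold. ZNF112, a KRAB gene on the long arm of chromosome 19, had 740 to 796 normalized counts with DMSO and 295 to 404 with JQ1, a 2.29-fold fall. ZNF462, a protein with 33 C2H2 fingers in which loss-of-function variants cause a developmental syndrome, had 3027 to 3330 and 1257 to 1660, a 2.24-fold fall. ZNF133, a KRAB repressor, had 1027 to 1078 and 442 to 511, a 2.19-fold fall. ZNF37A, a KRAB gene on chromosome 10, had 1988, 2052 and 2135 normalized counts with DMSO and 933, 968, 967 and 971 with JQ1, a fall of 2.14-fold. ZNF507, which has no KRAB domain, had 1572 to 1620 with DMSO and 853 to 995 with JQ1, a 1.77-fold fall. In each of these 5 genes, no JQ1 library reached the DMSO range.

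ZNF280C, a relative of the insulator-binding Drosophila protein Suppressor of Hairy-wing at chrX:130202707-130268899, rose the most. Its normalized counts were 1080, 995 and 1033 with DMSO, 2457, 2771, 2677 and 2555 with JQ1, and 1957, 1952 and 1938 with I-BET 762. All treated libraries lay above all DMSO libraries, and JQ1 lay above I-BET 762. The log2 fold change was 1.33 ± 0.05 (SE) with JQ1 and 0.91 ± 0.06 with I-BET 762 (limma adjusted p of 4.06e-12 and 1.98e-09).

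A group of KRAB genes from chromosome 19 followed. ZNF761, with 17 fingers, had 1413, 1361 and 1414 normalized counts with DMSO, 2722, 2902, 2643 and 2808 with JQ1, and 2283, 2472 and 2355 with I-BET 762, a rise of 1.98-fold and 1.70-fold. ZNF468 had 1243, 1400 and 1480 with DMSO, 2481, 3055, 2409 and 2787 with JQ1, and 2113, 2286 and 2292 with I-BET 762, a rise of 1.95-fold and 1.63-fold. In both genes the inhibitor libraries cleared the DMSO libraries, and the lowest JQ1 library lay above the highest I-BET 762 library. ZNF28, the neighbour of ZNF468, had 1646, 1891 and 1758 with DMSO and 3161, 3700, 2975 and 3253 with JQ1, a rise of 1.85-fold, and reached 2823 to 2863 with I-BET 762. ZNF441 had 802, 891 and 892 with DMSO and 1570, 1957, 1588 and 1587 with JQ1, a 1.94-fold rise in which the highest value was that of JQ1 18. ZNF737 had 1328 to 1399 with DMSO and 2341 to 2638 with JQ1, a 1.81-fold rise.

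Other rises came from genes elsewhere in the genome. ZNF800, which has no KRAB domain and represses the endocrine programme of gut cells, had 1770, 1927 and 1936 normalized counts with DMSO, 3740, 3652, 3649 and 3161 with JQ1, and 2743, 2801 and 2901 with I-BET 762. It rose 1.89-fold with JQ1, and 1.5-fold with I-BET 762, where the call sits at the edge of the fold threshold. ZNF654, on chromosome 3, had 1174 to 1198 with DMSO and 2039 to 2462 with JQ1, a rise of 1.84-fold. ZNF92, a KRAB gene on chromosome 7, had 2049 to 2302 and 3582 to 4568, also 1.84-fold.

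With I-BET 762, 12 of the 256 ZNF genes rose and 18 fell against DMSO, beside 8.96% up and 17.9% down among all genes tested and 5.1% and 9.34% among genes with a DMSO mean of at least 9.5 (4.69% and 7.03% of the ZNF genes). At an adjusted p under 0.05 in limma alone, 84 were higher and 72 lower, or 32.8% and 28.1%, beside 29.9% and 31.3% of all genes tested and 38.1% and 28.1% of genes with a DMSO mean of at least 9.5. The median log2 fold change was 0.05, against 0.05 for all genes with a DMSO mean of at least 9.5 and 0.00 over all genes tested. Rescaling to equal totals gave 6 up and 24 down, beside 994 and 3064 of the 14839 genes tested. Equal upper quartiles gave 9 up and 20 down, beside 1196 and 2790. The median of the ZNF genes became -0.045 under equal totals and 0.015 under equal upper quartiles. Over all genes tested these medians were -0.097 and -0.037. Without DMSO 13 the median of the ZNF genes was 0.021. The genes with the largest falls were ZNF532, ZNF618, ZNF32, ZNF689 and ZNF395, followed by ZNF37A at 1.97-fold (1022, 1022 and 1088 normalized counts), ZNF300, ZNF432, ZNF133 at 1.77-fold and ZNF462 at 1.74-fold. ZNF432, a KRAB gene on chromosome 19, had 1111, 1176 and 1194 normalized counts with DMSO, 643, 666 and 635 with I-BET 762, and 569 to 734 with JQ1, which is the only one of these 10 whose point estimate was lower with I-BET 762. After ZNF280C, ZNF761, ZNF468 and ZNF28 the largest rises were those of ZNF276 (1032 to 1049 with DMSO, 1632 to 1735 with I-BET 762, 1.61-fold), ZNF529 (1286 to 1366, 2043 to 2096, 1.55-fold), ZNF737 and ZNF117 (1.54-fold each) and ZNF654 (1.52-fold). Exons of the opposite strand overlap 32.3% of the ZNF276 and 24.0% of the ZNF529 exon sequence, and ZNF117 carries the same values as the readthrough symbol ERV3-1-ZNF117. The I-BET 762 calls of ZNF737, ZNF529 and ZNF117 were lost under equal totals, and those of ZNF654 and ZNF800 also under equal upper quartiles and without I-BET 762 23.

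The comparisons with JQ1 and with I-BET 762 share the DMSO libraries, so the calls are set side by side without a test of their overlap. With both inhibitors, 11 ZNF genes (4.3%) were called up and 15 (5.86%) down, beside 7.86% and 16.7% of all genes tested, and neither the ZNF genes nor all genes tested held a gene called in opposite directions. With JQ1 alone, 16 (6.25%, beside 5.48% of all genes tested) were called up, from 0.59 to 0.95 (log2), and these had values of 0.28 to 0.58 with I-BET 762. They were ZNF264, ZNF92, ZNF778, ZNF708, ZNF330, ZNF706, ZNF845, ZNF823, ZNF138, ZNF595, ZNF322, ZNF76, ZNF441, ZNF682, ZNF430 and ZNF14. Under equal totals ZNF92 and ZNF441 alone of these kept their call. Exact copies elsewhere in the genome cover 76.6% of the ZNF322 and 28% of the ZNF595 exon sequence, so reads of these genes are uncertain. With JQ1 alone, ZNF608, ZNF507, ZNF605, ZNF516 and ZNF343 (1.95%, beside 6.04% of all genes tested) were called down, with I-BET 762 values of -0.58 to -0.43. A call with 1 inhibitor alone does not mean that the other left the gene unchanged. With I-BET 762, ZNF608 fell 1.492-fold and ZNF507 1.485-fold (limma adjusted p of 8.62e-08 and 2.02e-06), just under the fold threshold. The call of ZNF605 was lost without DMSO 14, JQ1 17 or JQ1 20. With I-BET 762 alone, 0.391% were called up and 1.17% down, beside 1.1% and 1.21% of all genes tested. These were ZNF483 up (0.59, with 0.41 for JQ1, a call lost under equal totals or upper quartiles and without DMSO 13, DMSO 14 or I-BET 762 23) and ZNF621, ZNF232 and ZNF205 down (-0.68 to -0.64, with -0.58 to -0.44 for JQ1). The JQ1 fall of ZNF621 was 1.499-fold (limma adjusted p of 1.84e-08), also just under the threshold. The other 205 genes (80.1%, beside 61.6% of all genes tested) were called with neither, and the log2 fold changes of these genes lay between -0.58 and 0.58 for JQ1 and between -0.51 and 0.57 for I-BET 762.

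The inhibitors were compared directly at the same dose and time. The DMSO libraries that chose the genes do not enter the difference itself, but in the shared model they enter its error. No ZNF gene was called higher with JQ1 than with I-BET 762, and 2 were called lower, ZNF618 and ZNF608, beside 1.73% and 3.59% of all genes tested. limma-voom on the recovered reads gave 0 higher and 4 lower, beside 159 and 756 of all genes tested. At an unadjusted p under 0.05 in limma, 97 ZNF genes (37.9%) were higher and 32 (12.5%) lower. These shares stand beside 25.7% and 19.8% of genes with a DMSO mean of at least 9.5 and 19.2% and 19.5% of all genes tested. ZNF618 was 2.09-fold lower with JQ1 (log2 difference -1.06, 95% interval -1.26 to -0.87, limma adjusted p of 1.17e-06). ZNF608 was 1.54-fold lower (-0.62, interval -0.72 to -0.52, adjusted p of 3.88e-07). At an adjusted p alone, 71 ZNF genes were higher and 23 lower with JQ1, or 27.7% and 8.98%, beside 18.5% and 15.4% of genes with a DMSO mean of at least 9.5 and 13.3% and 14% of all genes tested, and the median difference was 0.09 (log2), against 0.03 for genes with a DMSO mean of at least 9.5 and 0.00 for all genes. Without library JQ1 18, 0 were called higher and 2 lower, 71 were higher and 27 lower at the adjusted p alone, and the median difference was 0.053. After rescaling to equal totals, 0 were called higher and 4 lower, beside 172 and 782 of the 14839 genes tested. The median difference of the ZNF genes was then -0.003, and that of all genes tested was -0.088. The sign of the ZNF median thus depends on the scaling.

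**Figure D4:**
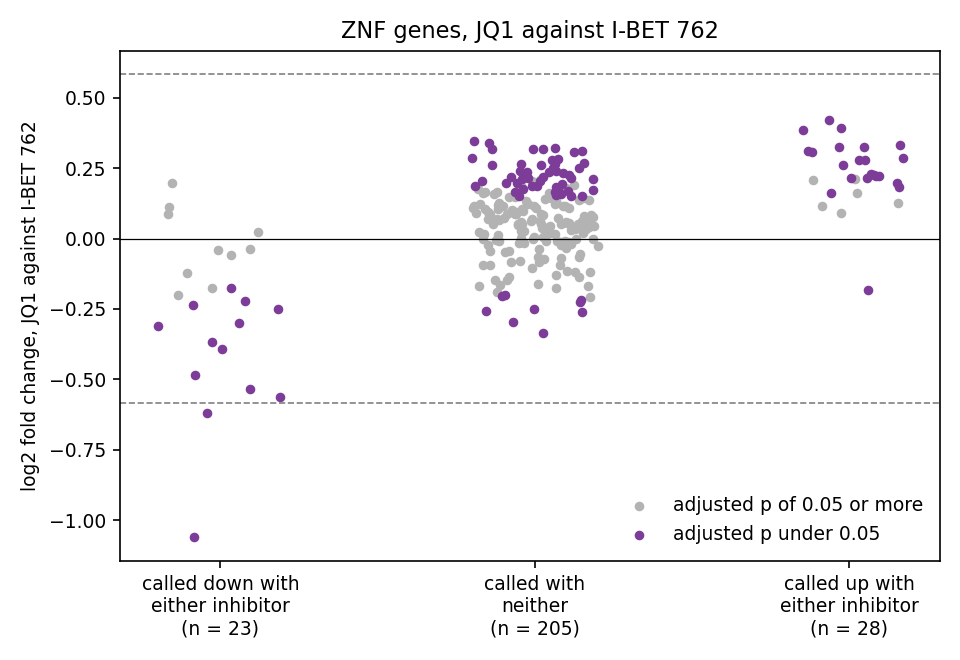
Log2 fold change of JQ1 against I-BET 762 from limma (vertical axis) for the ZNF genes called down with either inhibitor, with neither, or up with either (horizontal axis, with the number of genes). Points are genes and are spread sideways for view only; purple points have an adjusted p under 0.05, dashed lines mark 1.5-fold, and the lowest point at -1.06 is ZNF618.

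The next counts rest on calls that use the same JQ1 and I-BET 762 libraries as the direct comparison, so the choice of genes already leans towards a difference, and they are given as a description beside all genes tested that were chosen in the same way. Of the 28 ZNF genes called up with either inhibitor, 21 were higher with JQ1 than with I-BET 762 at a limma adjusted p under 0.05 and 1, ZNF483, was lower (75% higher, beside 40.8% of the 2142 genes called up). Of the 23 called down with either, 13 were lower with JQ1 and 0 were higher (56.5% lower, beside 38.6% of the 3558 genes called down). Among genes called with JQ1 alone, 68.8% of the ZNF rises were higher with JQ1, beside 62.7% of all such genes, and 40% of the ZNF falls were lower, beside 52%. These falls were ZNF608 and ZNF507 (ZNF507 log2 difference -0.25, interval -0.38 to -0.12). ZNF37A did not pass the direct comparison, with a difference of -0.12 and an interval of -0.23 to -0.01, and neither did ZNF432, with 0.02 and an interval of -0.14 to 0.19. Over all 256 genes, whatever their calls, the median size of the change (log2) was 0.32 for JQ1 and 0.22 for I-BET 762.

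A KRAB A box was found in 165 of the 249 ZNF genes with a protein, a SCAN domain in 14, and the number of C2H2 fingers ran from 0 to 36 with a median of 11. Only the canonical protein of each gene was searched. A gene with a KRAB A box in another isoform alone would therefore count among those without it. KRAB genes were called up in 17 and down in 10 cases with JQ1, and in 6 and 10 cases with I-BET 762. The 84 genes without a KRAB A box were called up in 9 and down in 10 cases with JQ1, and in 5 and 8 cases with I-BET 762. The shares called up with JQ1 were 10.3% and 10.7%, beside 13.3% of all genes tested. With I-BET 762 the shares called up were 3.64% and 5.95%, beside 8.96%, and those called down 6.06% and 9.52%, beside 17.9%. Among genes with a DMSO mean of at least 9.5 the up and down shares were 10.9% and 13% for JQ1, and 5.1% and 9.34% for I-BET 762. The JQ1 medians were 0.15 for KRAB genes and 0.04 for the others. Without JQ1 18, 13 KRAB genes were called up and 12 down, and 7 and 10 of the others. Of the 12 KRAB genes called up with JQ1 alone, ZNF92 and ZNF441 alone kept their call under equal totals. The I-BET 762 up calls of the KRAB genes ZNF737, ZNF529 and ZNF483 were also lost under equal totals. The JQ1 median over all genes tested then moved to -0.18, so the KRAB median of 0.15 depends on the scaling. The shares called down with JQ1 were 6.06% and 11.9%, beside 22.8% of all genes tested, and the difference between the classes was not tested. ZNF618 and ZNF608, which were called between the inhibitors, are both without a KRAB A box. At a limma adjusted p under 0.05 alone, 54 of the 165 KRAB genes were higher and 10 lower with JQ1 than with I-BET 762. Of the 84 others, 15 were higher and 13 lower. Genes with a DMSO mean of at least 9.5 had 1437 higher and 1199 lower of 7780. Without JQ1 18 the counts were 50 and 12 for KRAB genes, and 19 and 15 for the others. This difference between the classes was not tested.

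Chromosome 19 holds 117 of the 256 ZNF genes, and 102 of these carry a KRAB A box. With JQ1, 13 of the 117 (11.1%) were called up and 4 (3.42%) down, beside 13.3% and 22.8% of all genes tested and 10.9% and 13% of genes with a DMSO mean of at least 9.5, with a median of 0.16. Without JQ1 18, 10 were called up and 5 down. Under equal totals the up calls of ZNF264, ZNF708, ZNF845, ZNF823, ZNF682, ZNF430 and ZNF14 were lost. The median over all genes tested then moved to -0.18. The JQ1 median of 0.16 and the share of positive values given below therefore depend on the scaling. With I-BET 762, 5 (4.27%) were called up and 3 (2.56%) down, beside 8.96% and 17.9% of all genes tested, with a median of 0.03. All 13 genes of chromosome 19 called up with JQ1 have a KRAB A box, while the 63 KRAB genes elsewhere had 4 called up and 7 down. The 117 genes fall into 15 runs separated by gaps of over 1 Mb, a division made after the values had been seen and described here without a test. With JQ1, 67.5% of the 117 genes had a positive value, beside 62.5% of the 256 and 58.4% of all genes with a DMSO mean of at least 9.5. With I-BET 762 these shares were 54.7%, 55.5% and 56.5%. The runs named next were picked by their values. Among the others, all 9 genes of the run at chr19:8806170-9675100 were positive with none called, and the run of 15 genes at chr19:36214602-37548762 had 7 positive and 1 called up. In the run at chr19:19668796-21852125, 13 of 15 genes had a positive value with JQ1, with a median of 0.42. Of these genes, 5 were called up (ZNF14, ZNF682, ZNF737, ZNF430 and ZNF708). Without JQ1 18 all but ZNF430 were called up, and under equal totals ZNF737 alone kept its call. The run at chr19:11559374-12633840 had a median of 0.47 over 6 genes, with ZNF823 and ZNF441 called up (ZNF441 alone without JQ1 18 or under equal totals). The run at chr19:43607224-44500524 went the other way, with a median of -0.21 over 9 genes, 6 of them below 0, and ZNF234 and ZNF112 called down. The run of 24 genes at chr19:51889235-53580269 held both the rises of ZNF28, ZNF468, ZNF845 and ZNF761 and the fall of ZNF432. With I-BET 762 the medians of these 4 runs were 0.25, 0.21, -0.17 and -0.01. Neighbouring ZNF genes are related in sequence, and 12 of the 256 genes have exact copies over more than 10% of their exon sequence.

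**Figure D5:**
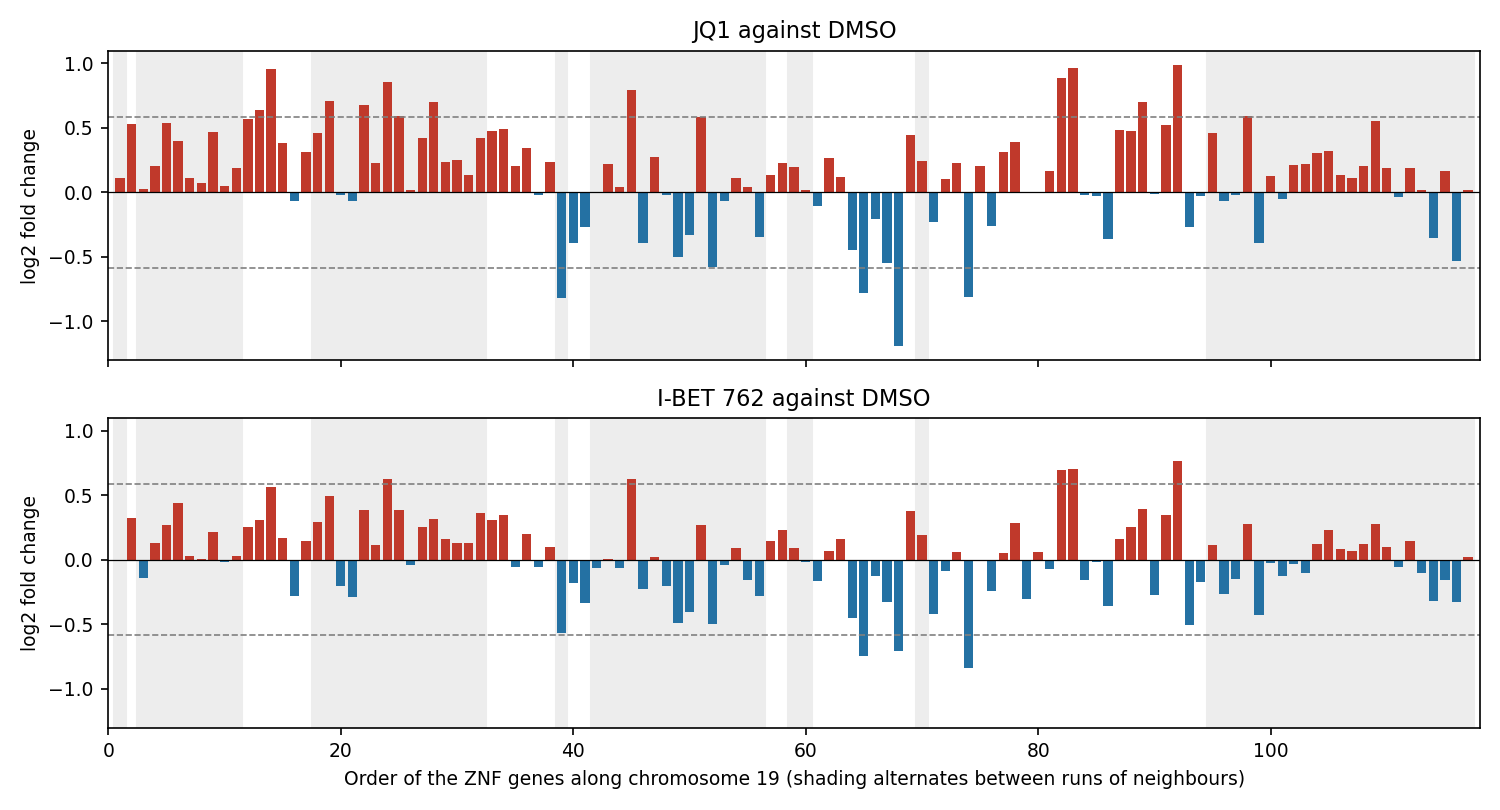
Log2 fold change (vertical axis) of the 117 ZNF genes of chromosome 19 in their order along the chromosome (horizontal axis), with JQ1 above and I-BET 762 below. Bars are genes, red above 0 and blue below, dashed lines mark 1.5-fold, and shading alternates between the 15 runs. With JQ1, 13 of the 15 bars in the run with ZNF737 are above 0, and the lowest JQ1 bar is ZNF112.

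Of 11 listed members of chromatin complexes, 1 rose and 3 fell with JQ1 (ZNF280C up, ZNF532, ZNF462 and ZNF516 down). These are 9.09% and 27.3% of the list, beside 13.3% and 22.8% of all genes tested. Among genes with a DMSO mean of at least 9.5 the shares were 10.9% and 13%. With I-BET 762, 1 rose and 2 fell (9.09% and 18.2%, beside 8.96% and 17.9% of all genes tested). The list of 11 is too short to be read against these shares. ZNF516, a CtBP-associated repressor, had 1075, 1047 and 1012 normalized counts with DMSO, 779, 528, 813 and 663 with JQ1, and 751 to 815 with I-BET 762, with all inhibitor libraries below all DMSO libraries. Its JQ1 log2 fold change was -0.605 with and -0.48 without JQ1 18, the library at 528, and the latter is no call, nor was it called without DMSO 13. The partners of ZNF532 had other values. ZNF592 had 1092 to 1319 normalized counts with DMSO and 1072 to 1479 with JQ1 (log2 fold change 0.03, limma adjusted p of 0.784), and ZNF687 had 1118 to 1247 and 1435 to 1659 (0.35, 6.54e-05), under the fold threshold. ZNF217, an oncogene amplified in breast cancer, went from 8041, 8329 and 8084 with DMSO to 11114 to 11556 with JQ1 and 10294 to 10618 with I-BET 762, a difference of 1.38-fold and 1.28-fold. ZNF644, which partners the histone methyltransferase G9a, had a JQ1 value of 0.04 (adjusted p of 0.64), and ZNF711, a partner of the histone demethylase PHF8, had 0.02 (0.851). The G9a-associated proteins ZNF518A and ZNF518B had 0.085 and -0.22.

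Of 9 zinc finger proteins listed for RNA, ribosome, SUMO or spindle roles, 1 (11.1%, beside 13.3% of all genes tested) was called up with JQ1 and none down. This was ZNF330, a nucleolar protein, with 1430, 1524 and 1526 normalized counts with DMSO and 2279, 2559, 2243 and 2057 with JQ1, a 1.53-fold rise that fell short of the fold threshold without JQ1 18 (0.55, log2), without DMSO 13 and under equal totals or upper quartiles, and with I-BET 762 none was called. ZNF598, the ubiquitin ligase that senses collided ribosomes, had 1990 to 2120 with DMSO and 2372 to 3198 with JQ1, a 1.39-fold difference with a wide spread. ZNF207, a spindle assembly protein, was at 9892 to 10035 with DMSO and 10839 to 12198 with JQ1. ZNF346, which binds double-stranded RNA, was 1.45-fold lower with JQ1 (993 to 1084 against 657 to 771). The JQ1 log2 fold changes of the SUMO ligase ZNF451, the ribosome biogenesis factor ZNF622, the splicing-associated ZNF326, the RNA-binding ZNF106 and ZNF638, which silences unintegrated retroviral DNA, were 0.26, 0.27, 0.145, -0.19 and 0.35. Of 7 listed sequence-specific factors, ZNF76 rose 1.52-fold with JQ1 (955 to 1071 with DMSO, 1437 to 1641 with JQ1) and ZNF395 fell. These are 14.3% each, beside 13.3% up and 22.8% down among all genes tested. The call of ZNF76 was lost under equal totals or upper quartiles and without DMSO 15 or JQ1 20. ZNF143, which recognises the same sequence as ZNF76, had 1291 to 1401 with DMSO and 1718 to 2060 with JQ1, a 1.37-fold difference that passed the adjusted p but not the fold threshold. ZNF148 and ZNF281, related factors of GC-rich promoters, had -0.37 and 0.21, and ZNF24 and ZNF740 had 0.16 and 0.03. None of the 6 listed KRAB repressors of transposon sequence was called, a list too short to be read against the shares of 10.9% up and 13% down with JQ1 among all genes with a DMSO mean of at least 9.5. ZNF91, which represses SVA elements, had 3753 to 4042 normalized counts with DMSO, 5239 to 6086 with JQ1 and 4937 to 5059 with I-BET 762 (1.40-fold and 1.27-fold), and ZNF93, which represses LINE-1 elements, had 1870 to 1981, 1712 to 2044 and 1487 to 1627. ZNF649, ZNF382, ZNF587 and ZNF45 had JQ1 values of -0.23, -0.39, -0.04 and 0.12 (log2).

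The machinery on which KRAB proteins act was listed as 24 genes, of which 23 were tested. With JQ1, 2 rose and 4 fell (8.7% and 17.4%, beside 13.3% and 22.8% of all genes tested), and with I-BET 762, 2 rose and 1 fell (8.7% and 4.35%, beside 8.96% and 17.9%). TRIM28, the KRAB corepressor, had 15776, 15124 and 14890 normalized counts with DMSO, 26617, 25547, 27182 and 28929 with JQ1, and 23624, 23562 and 23470 with I-BET 762, a rise of 1.77-fold and 1.54-fold. CBX5, which encodes HP1 alpha, had 22549 to 23888 with DMSO and rose 1.53-fold with JQ1 and 1.60-fold with I-BET 762, a call lost under equal totals for both inhibitors, as was that of TRIM28 for I-BET 762. SETDB1, the methyltransferase that TRIM28 recruits, had 2312, 2359 and 2237 with DMSO and 1253, 1521, 1337 and 1609 with JQ1, a fall of 1.62-fold, and 1822 to 1910 with I-BET 762. CHD3, a NuRD helicase, fell 4.43-fold with JQ1 and 3.56-fold with I-BET 762, where the DMSO, JQ1 and I-BET 762 libraries spanned 3093 to 3386, 679 to 805 and 876 to 943. SUV39H1, a histone H3 lysine methyltransferase, fell 1.96-fold with JQ1 (867 to 912 against 382 to 499). SMARCAD1, a chromatin remodeller, fell 1.69-fold (4513 to 4785 against 2644 to 3028). With JQ1, TRIM28 was above and SETDB1 below DMSO in every library.

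The DMSO level per kb of exon sequence was highest for ZNF146, a protein of fingers alone, at 2134 ± 124 normalized counts per kb (SD, n = 3), followed by ZNF217 at 1320 ± 25.2, ZNF106, an RNA-binding protein, at 1241 ± 22.2, ZNF121 at 1133 ± 35.3 and ZNF22 at 1047 ± 103. The value of ZNF22 overlaps that of ZNF121 within the spread of the 3 libraries. These levels describe genes selected on the same libraries. ZNF146 had 8247 to 9144 normalized counts with DMSO and 8254 to 10421 with JQ1 (log2 fold change 0.00, interval -0.15 to 0.15), while ZNF121 had 7933 to 8436 and 10950 to 12200, a 1.38-fold difference. The genes with the smallest changes were ZNF584 (0.02 with either inhibitor, JQ1 interval -0.12 to 0.15), the pseudogene ZNF271P (0.02 and 0.01) and ZNF526 (0.01 and -0.02). At the threshold of 9.5, ZNF813, ZNF526 and ZNF71 were just inside with DMSO means of 9.53, 9.53 and 9.55, and ZNF749, ZNF730 and ZNF419 just outside with 9.49, 9.49 and a value just under 9.5.

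Promoters in the RefSeq table could be matched for 225 of the 256 ZNF genes and compared with 27305 promoters of all genes, each over the 250 bases before the start. GGGCGG, the core of the GC box, occurred on either strand in 61.8% of the ZNF promoters, 42.3% of all promoters and 56% of those of protein-coding genes. It was found in 20 of 23 promoters of ZNF genes called up with JQ1 (87%) and in 6 of 17 of those called down (35.3%), a contrast that was noticed in the data and not tested. The same shares were not counted for all genes called with JQ1, so the contrast cannot be read as particular to ZNF genes. Among the 27 called up, 13 lie on chromosome 19, where neighbouring ZNF genes are related in sequence. The number called up was 13 under equal totals. CCAAT occurred in 44.4% of the ZNF promoters and 33% of all promoters, and in 51% and 31.1% of those of KRAB genes and of genes without a KRAB A box. TATAAA was present in 4.89% and 11.1% and CACGTG, the E-box letters, in 3.56% and 6.49%. Each motif was counted on its own, and matches of different motifs can share a base.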

How the data were processed

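RNA-seq of SK-UT-1 cells was analysed from the deposited table. The authors trimmed reads with Trimmomatic, aligned them to hg38 with HISAT2 2.2.1, counted them on Gencode V41 genes with featureCounts 2.0.3, normalized with DESeq2 and excluded outlier samples, as the methods and the submitters' processing notes give it. Per symbol and library, the authors deposited log2(normalized count + 1), with 22784 symbols and 10 libraries. Whether counting used strand is not given in the sources used here. Whole reads were recovered from the steps between values (99.745% to 99.781% of values within 0.05 of a whole number). These reads served limma-voom as an alternative. Genes with a normalized count of at least 10 in at least 3 libraries were tested (14839) with limma 3.58.1 in R 4.3.3, with 1 model over all libraries, an intensity trend and Benjamini-Hochberg adjustment over all genes tested. Fold changes are on the log2 scale of the normalized count plus 1. The code was tested on simulated data. The ZNF genes, lists and thresholds were chosen with earlier results of these data known. Genes were named by rule: the 10 largest called rises and falls for each inhibitor, calls between inhibitors, ZNF37A, ZNF507, genes at the threshold, the highest per kb, the least changed, role lists and called corepressor genes. Lists were of chromatin complexes, RNA and ribosome proteins, activators, transposon repressors, corepressors and cell markers, and promoter examples were chosen by the size of the JQ1 change. KRAB and SCAN domains were found with pyhmmer 0.12.3 profiles (e-value 1e-05) in the canonical protein of each gene, translated from Gencode V44. In that annotation 4 symbols had no matching gene. Fingers were counted as C-x2-4-C-x12-H-x3-5-H. Exon copies were exact matches of 75-base pieces in hg38. Alternatives were other pseudocounts, filters, scalings, thresholds, models and gene choices, and each library left out in turn.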

Additional observations from a re-analysis of the deposited data

Results flagged for a closer look

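In 6 of the 69 sets of 4 JQ1 values examined for named genes, 1 library stood far from the others, and chance alone marks about 1 in 20 such groups. JQ1 18 was the highest for ZNF441 (1957 normalized counts, the others 1570 to 1588), ZNF146 (10421, the others 8254 to 8474) and ZNF711 (1738, the others 1387 to 1412). JQ1 20 was the lowest for ZNF800 (3161, the others 3649 to 3740). JQ1 17 was the lowest for ZNF37A (932.9, the others 967.4 to 970.6), and JQ1 19 was the lowest for ZNF45 (1732, the others 1913 to 1946). ZNF441, ZNF800 and ZNF37A kept their JQ1 calls when each library was left out. The groups of 3 libraries were not examined in this way.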

How the results depend on the processing

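No paired analysis was possible because the replicate numbers 13 to 24 differ between all libraries. The total numbers of called ZNF genes kept within 1.5 times the main number under the pseudocounts, filters, scalings and models tried, except between the inhibitors. The split into up and down calls did not. With JQ1 it went from 27 up and 20 down to 13 and 35 under equal totals and under limma-voom. With I-BET 762 it went from 12 and 18 to 6 and 24 under both. Without a fold threshold the totals were 193 (JQ1), 156 (I-BET 762) and 94 (JQ1 against I-BET 762). With a threshold of 2-fold they were 12, 5 and 1. Between the inhibitors, equal totals and limma-voom gave 4 each, and ZNF genes chosen on the inhibitor libraries or on all 10 libraries gave 1 each. The median log2 fold changes turned sign under equal totals (-0.058, -0.045 and -0.003 for JQ1, I-BET 762 and JQ1 against I-BET 762) and under limma-voom (-0.057, -0.046 and -0.004), which scales to library totals. Equal upper quartiles gave 0.062 and 0.015 for the inhibitors against DMSO, choice on the inhibitor libraries 0.208 and 0.106, choice on all 10 libraries 0.203 and 0.095 (both choices admit genes that pass through the inhibitor libraries, which raises these medians), and a DMSO mean of at least 10 gave 0.065 for I-BET 762. With any 1 library left out there were 43 to 51, 29 to 32 and 2 to 4 calls, and medians of 0.098 to 0.149, 0.021 to 0.056 and 0.053 to 0.099; the I-BET 762 median was 0.021 without DMSO 13 and 0.031 without I-BET 762 22, and 4 calls between the inhibitors were made without JQ1 20. Leaving out the 16 ZNF genes with exon copies or no Gencode V44 gene, a choice made after seeing the data, gave 43, 28 and 2 calls, and leaving out pseudogene and readthrough symbols gave 46, 29 and 2. Of 88 calls of the ZNF genes and named corepressors, 63 held under every alternative fit and 0 turned sign. The other 25 lost their call at least once: with I-BET 762 ZNF800, ZNF654, ZNF737, ZNF529, ZNF117, ZNF483, TRIM28 and CBX5, and with JQ1 CBX5, ZNF516, ZNF605 and 14 rises (ZNF264, ZNF778, ZNF708, ZNF330, ZNF706, ZNF845, ZNF823, ZNF138, ZNF595, ZNF322, ZNF76, ZNF682, ZNF430 and ZNF14), all 14 of them under equal totals. The cause of these shifts was not tested beyond the scaling itself.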

Other observations

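Other zinc finger families were counted by symbol. Of 37 ZBTB symbols tested, which name proteins with a BTB domain except for the antisense RNA ZBTB11-AS1, 3 rose (ZBTB11, ZBTB21 and ZBTB11-AS1) and 9 fell with JQ1, and 1 rose and 8 fell with I-BET 762. The shares called down, 24.3% and 21.6%, lie near the 22.8% and 17.9% of all genes tested. ZBTB47 fell the most among ZBTB genes with a DMSO mean of at least 9.5, from 840, 785 and 705 normalized counts with DMSO to 113 to 133 with JQ1 and 218 to 252 with I-BET 762, and ZBTB11 rose 2.25-fold and 1.98-fold. Of 20 ZFP symbols, 0 rose and 3 (15%) fell with either inhibitor in limma, and 5 were higher and 8 lower with JQ1 at an unadjusted p under 0.05 (25% and 40%, beside 37% and 36.6% of all genes tested). ZFP37, ZFP64 and ZFP92 fell 2.92-fold, 2.16-fold and 2.37-fold with JQ1. Of 18 ZSCAN symbols, 1 of them antisense, 3 rose and 5 fell with JQ1, and of 9 ZKSCAN symbols, 1 rose and 1 fell. These are 16.7% and 27.8% of the ZSCAN and 11.1% each of the ZKSCAN symbols, beside 13.3% up and 22.8% down among all genes tested. Among the ZNF symbols under 9.5, ZNF536 had 64.9, 54.5 and 61.9 normalized counts with DMSO and 2.18 to 5.07 with JQ1, and ZNF358 had 465, 516 and 612 with DMSO, 62.0 to 74.0 with JQ1 and 98.4 to 119 with I-BET 762. These genes were chosen after their values were seen.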
